A study of Mus musculus with 6 samples.

Results

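Pre-mRNA splicing removes introns in the spliceosome, which is built from small nuclear ribonucleoproteins (snRNPs) and many further proteins. A ring of Sm proteins forms the core of most spliceosomal snRNPs, the U1 snRNP marks the 5′ splice site, and the SF3A and SF3B complexes hold the U2 snRNP at the branch point. SR proteins, which carry domains rich in serine and arginine, mostly promote the use of nearby exons, whereas heterogeneous nuclear ribonucleoproteins (hnRNPs) often repress it. In T cells such regulators are known for setting the isoforms of the surface phosphatase CD45. The genes described here are the protein-coding genes whose mouse symbols begin with Srsf, Hnrnp, Snrp, Sf3a or Sf3b, taken from the Ensembl identifiers of the deposited table. Of its 35275 genes, 51 met this rule: 11 SR protein genes, 20 hnRNP genes, 11 genes of Sm proteins and of U1 and U2 snRNP proteins, and 9 genes of SF3A and SF3B subunits. These groups are called roles below.

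The study compared regulatory T (Treg) cells with and without Rcor1, which encodes the corepressor scaffold CoREST1. The 3 deletion libraries came from crosses of floxed Rcor1 with Foxp3YFPcre mice, in which the Cre is expressed with Foxp3, so that Rcor1 is deleted in Foxp3+ cells. The 3 control libraries came from Foxp3YFPcre mice, labelled wild type, which carry the Cre as well. All mice were males of 6 to 8 weeks, and YFP+ cells were sorted after column enrichment of CD4+ cells. The labels number the replicates within each group but do not say whether a library is 1 mouse or a pool, nor on which day it was made. The p-values therefore measure the spread between these libraries, which may be partly technical. Values are FPKM, fragments normalised to gene length and to the fragments of the library, as the authors deposited them. Group values are the mean ± SD over 3 libraries, and fold changes are deletion over control of FPKM + 1 on the log2 scale.

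The libraries held 18538581 to 22349455 fragments, recovered from the steps of the FPKM values. Rcor1 itself was at 12.5, 13.0 and 14.2 FPKM in deletion libraries 1 to 3, against 16.1, 16.1 and 15.2 FPKM in control libraries 1 to 3, with no overlap, although the change did not pass the test (log2 fold change -0.24, adjusted p = 0.0562). It passed with median-ratio scaling (adjusted p = 0.0266), quantile normalization (adjusted p = 0.0314) and voom (adjusted p = 0.0166). The value counts fragments of the whole gene, so it is a weak check of a deletion of some exons. The 7 Treg markers summed to 1072 to 1092 FPKM in deletion libraries and 996 to 1168 FPKM in control libraries. Markers of other tissues moved with the groups: all 5 lens genes and all 5 fat genes were lower in every deletion library, with sums of 0.205 to 0.406 and 0.591 to 1.38 FPKM there, against 102 to 191 and 45.5 to 56.8 FPKM in control libraries. Crybb2, Crygs and Cfd were at 0 in all deletion libraries. The 8 B cell markers summed to 52.2 to 63.2 FPKM in deletion libraries and 31.0 to 48.1 FPKM in control libraries. The 4 myeloid markers varied widely, with sums of 3.4 to 71.7 FPKM in deletion libraries and 5.99 to 39.8 FPKM in control libraries. The 2 CD8 T cell markers summed to 10.9 to 12.6 FPKM in deletion libraries and 10.7 to 17.7 FPKM in control libraries. The part of these differences in the results below was not tested. In bulk RNA, fewer cells that express a gene and less of its RNA per cell cannot be told apart.

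The splicing factor genes were abundant and changed little. Of the 51 genes, 49 reached 1 FPKM in at least 3 libraries and were tested, and 47 of these lay above the median level of all tested genes. Their median level was 80.9 FPKM, against 11.4 FPKM over all 11575 tested genes, and each held 541 to 28076 fragments in every library. With limma and an adjusted p under 0.05 over all tested genes, 3 of the 49 rose in deletion Treg cells (Hnrnph1, Hnrnpa0 and Srsf2) and 2 fell (Sf3a3 and Snrpd1). That is 6.12% higher and 4.08% lower, against a background of 8.95% higher and 3.08% lower over all tested genes. In either direction the background was 12.0%. The counts are close to the background and are no result about splicing factors as a group. No gene among the 49 changed 2-fold, and their log2 fold changes ran between -0.39 and 0.50. The median log2 fold change was 0.01, against 0.08 for all tested genes.

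The intervals of the uncalled genes were narrow. For 43 of the 44 uncalled genes, the 95% interval of the fold change lay within 1.5-fold in both directions at the deposited scaling. The exception was Hnrnpab (log2 fold change -0.35, interval -0.61 to -0.08). Groups did not overlap for 10 genes that were higher in deletion libraries and 10 that were lower, or 20.4% each, against a background of 29.3% and 9.79%. An unadjusted p under 0.05 was found for 18 of the 49 (36.7%), against 32.6% of all tested genes.

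**Figure D1:**
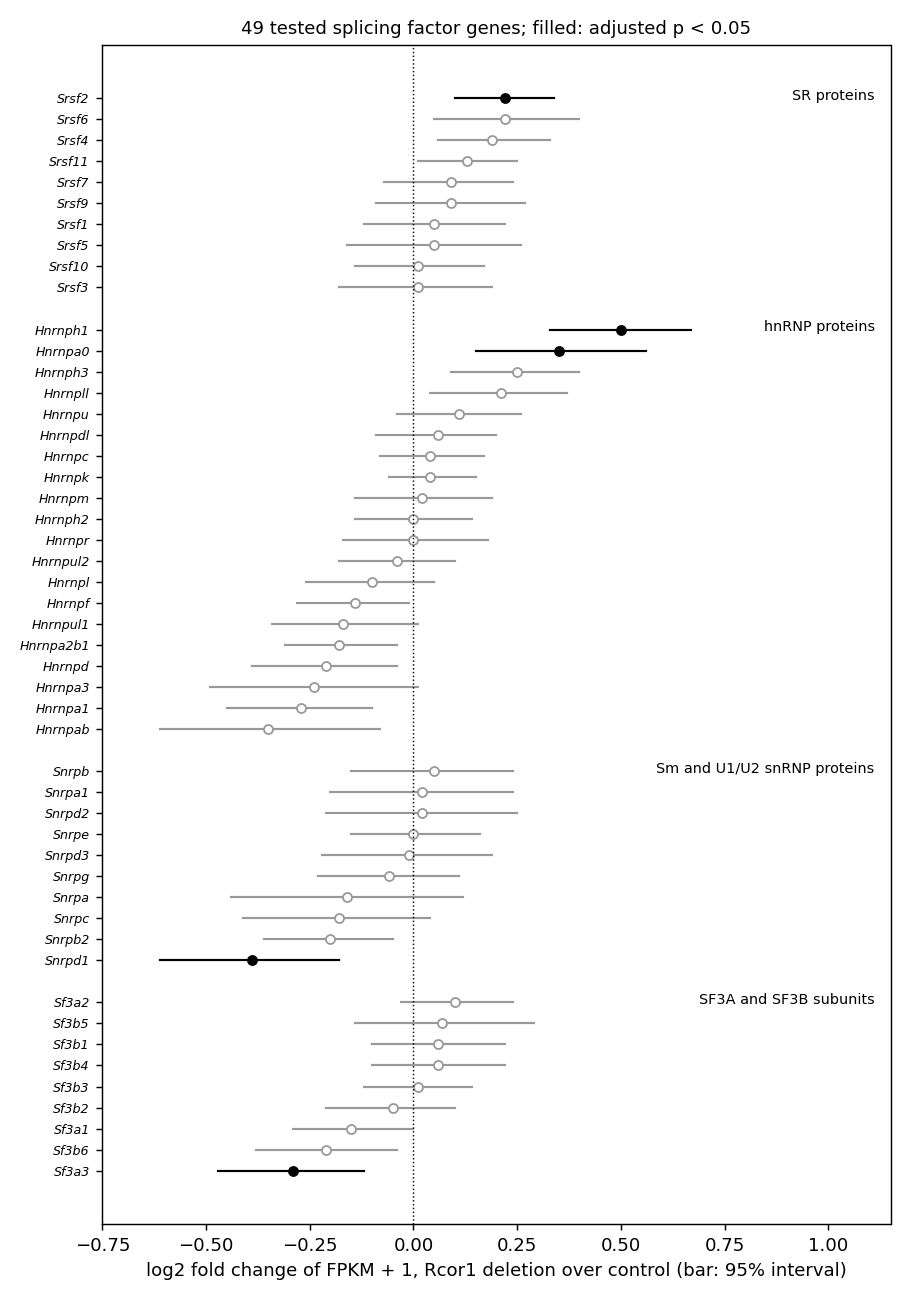
Log2 fold change of FPKM + 1 (x axis, Rcor1 deletion over control) for the 49 tested splicing factor genes, grouped by role, with 95% intervals from limma as bars. Filled points are the 5 genes with an adjusted p under 0.05: Srsf2, Hnrnph1 and Hnrnpa0 lie right of 0, and Snrpd1 and Sf3a3 lie left of it.

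Hnrnph1 showed the clearest change of all 49 genes. It encodes hnRNP H1, which binds runs of G in pre-mRNA and can promote or repress an exon depending on where it binds. Hnrnph1 (ENSMUSG00000007850, chromosome 11, 50376990 to 50386528, plus strand of GRCm38) held 128, 125 and 122 FPKM in deletion libraries 1 to 3, against 88.2, 96.8 and 80.9 FPKM in control libraries 1 to 3. Every deletion library was above every control library, and the 3 deletion libraries lay closer together. The mean was 125 ± 3.0 FPKM in deletion libraries and 88.6 ± 8.0 FPKM in control libraries, 41.2% higher (log2 fold change 0.50, SE 0.071, adjusted p = 0.00977). Among the 49 genes it alone kept its call in all 16 alternative settings, with log2 fold changes of 0.40 to 0.56 and adjusted p-values of 0.00347 to 0.0481.

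The relatives of Hnrnph1 took different values. Hnrnph3, a shorter member of the same subfamily, was at 14.9, 15.9 and 15.2 FPKM in deletion libraries, against 11.9, 13.2 and 13.3 FPKM in control libraries. Its groups did not overlap, but it did not pass the test (adjusted p = 0.0531). Hnrnph3 was called higher with a filter at 5 FPKM and with array quality weights. Its exons share 115 bases with Rufy2 on the opposite strand, at 8.23 to 9.67 FPKM in deletion libraries and 5.98 to 8.23 FPKM in control libraries. The part of that overlap in the Hnrnph3 values was not tested. Hnrnph2, the X-linked close copy of Hnrnph1, averaged 30.3 ± 1.3 FPKM in deletion libraries and 30.3 ± 1.5 FPKM in control libraries, with an interval of -0.14 to 0.14 on the log2 scale. Hnrnpf, which binds the same G runs, averaged 232 ± 14 FPKM in deletion libraries and 256 ± 2.1 FPKM in control libraries (adjusted p = 0.14). A ratio of such relatives within a library does not change when the library is scaled by a single factor, though quantile normalization can change it. The ratio of Hnrnph1 to Hnrnpf was 0.524, 0.530 and 0.565 in deletion libraries 1 to 3, against 0.346, 0.375 and 0.318 in control libraries 1 to 3. The balance of these genes thus differed by 55.9% between the group means without overlap. Likewise the ratio of Hnrnph1 to Hnrnph2 averaged 4.13 ± 0.085 in deletion libraries and 2.94 ± 0.36 in control libraries. These pairs and those below, 8 in all, were chosen after the values were seen, and were not tested.

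Of the hnRNP A and B genes, Hnrnpa0 passed the test. Hnrnpa0 (ENSMUSG00000007836, chromosome 13, 58125879 to 58128556, minus strand), an intronless gene whose protein binds AU-rich mRNA, rose to 294, 333 and 335 FPKM in deletion libraries 1 to 3, against 245, 231 and 278 FPKM in control libraries 1 to 3. All deletion values lay above all control values, by 27.6% in the mean (log2 fold change 0.35, SE 0.086, adjusted p = 0.0435). Hnrnpa1, a splicing repressor and the most abundant of the 51 genes in these units, held 470.0, 479.6 and 468 FPKM in deletion libraries 1 to 3, against 602, 511 and 606 FPKM in control libraries 1 to 3. The groups did not overlap, yet the log2 fold change of -0.27 missed the threshold (adjusted p = 0.0557). The ratio of Hnrnpa0 to Hnrnpa1 was 0.678 ± 0.048 in deletion libraries and 0.439 ± 0.028 in control libraries, again without overlap. Hnrnpa2b1, which also carries mRNA and sorts microRNAs, averaged 266 ± 13 FPKM in deletion libraries and 300 ± 13 FPKM in control libraries. Hnrnpa3 averaged 204 ± 14 and Hnrnpab 156 ± 12 FPKM in deletion libraries, against 242 ± 32 and 200.3 ± 28 FPKM in control libraries. Control library 2, at 205 FPKM for Hnrnpa3 and 168 FPKM for Hnrnpab, lay among the deletion libraries for both genes, and neither passed. Hnrnpd, also known as AUF1, a factor of mRNA decay, averaged 54.0 ± 2.2 FPKM in deletion libraries and 62.8 ± 5.5 FPKM in control libraries (adjusted p = 0.101).

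**Figure D2:**
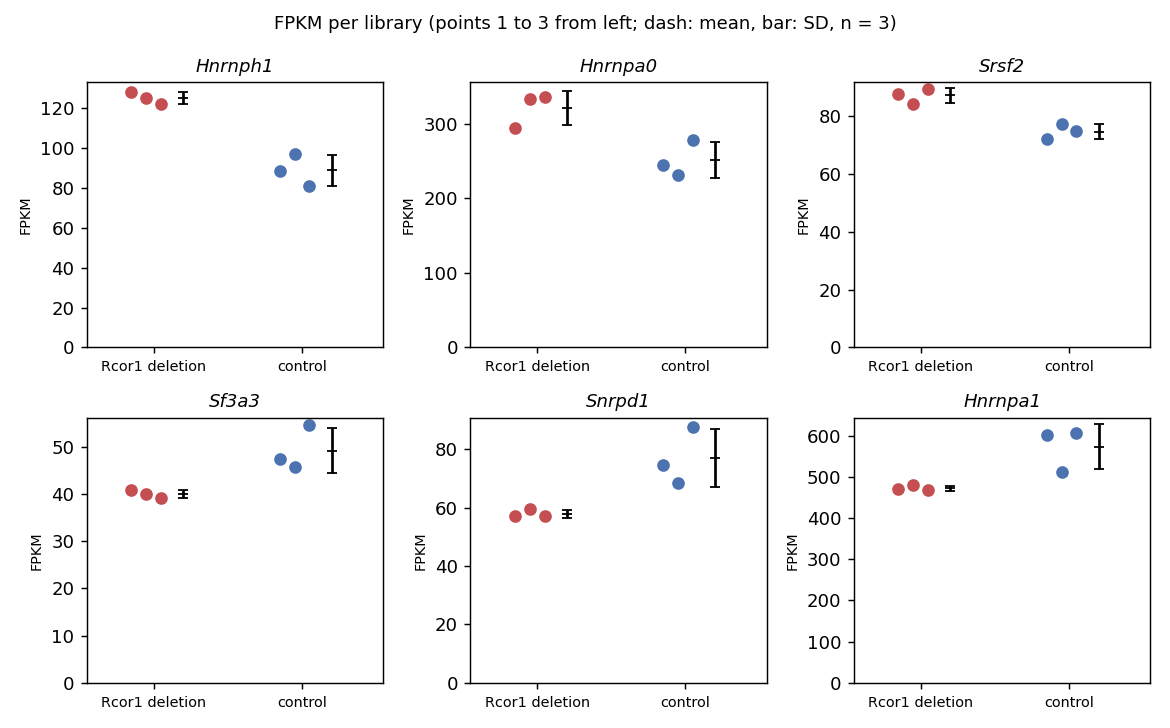
FPKM in each library (y axis, from 0) for the 5 genes that passed the test and for Hnrnpa1, with points for libraries 1 to 3 and the mean and SD beside them. Deletion and control points do not overlap for any of the 6 genes.

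None of the remaining hnRNP genes passed the test at the deposited scaling. Hnrnpll, which represses CD45 exons in activated and memory T cells, was at 29.4, 33.9 and 29.8 FPKM in deletion libraries, against 26.8, 25.6 and 27.6 FPKM in control libraries (adjusted p = 0.0934). Hnrnpl, its relative with the same target, averaged 213 ± 3.3 FPKM in deletion libraries and 229 ± 18 FPKM in control libraries. The poly(C)-binding Hnrnpk averaged 253 ± 5.6 FPKM in deletion libraries and 246 ± 3.8 FPKM in control libraries, and the U-tract-binding Hnrnpc 126 ± 5.4 FPKM in deletion libraries and 122 ± 3.4 FPKM in control libraries. Both thus lay close in the 2 groups. Hnrnpm, Hnrnpr, Hnrnpdl, Hnrnpul1 and Hnrnpul2 had log2 fold changes of 0.02, 0.00, 0.06, -0.17 and -0.04, with adjusted p-values of 0.172 or more. Hnrnpu, a nuclear scaffold protein, averaged 8.42 ± 0.29 FPKM in deletion libraries and 7.71 ± 0.33 FPKM in control libraries, the lowest level of any hnRNP gene in this table. Its exons share 591 bases with those of Cox20 on the opposite strand. The labels do not say whether strand was used in counting, and without it reads of such overlapping genes cannot be told apart. Of the 51 genes, 18 share exon bases with a gene on the opposite strand and 5 with one on the same strand.

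SR protein genes lay slightly higher in deletion libraries at the deposited scaling, though most did not with median-ratio scaling. Srsf2 (ENSMUSG00000034120, chromosome 11, 116849901 to 116853094, minus strand), the speckle protein SC35 that binds exonic enhancers, rose to 87.7, 84.2 and 89.4 FPKM in deletion libraries 1 to 3, against 71.9, 77.1 and 74.9 FPKM in control libraries 1 to 3. The lowest deletion value exceeded the highest control value, and the mean was 16.7% higher (log2 fold change 0.22, SE 0.051, adjusted p = 0.0391). After median-ratio scaling Srsf2 no longer passed (log2 fold change 0.13, adjusted p = 0.16). Exons of Srsf2 share up to 460 bases with Mettl23 on the opposite strand, which lay at 37.8 to 39.2 FPKM in deletion libraries and 34.9 to 39.9 FPKM in control libraries. Srsf6 averaged 117 ± 3.8 FPKM in deletion libraries and 100.4 ± 9.4 FPKM in control libraries (adjusted p = 0.0876). Srsf4 averaged 10.9 ± 0.085 FPKM in deletion libraries and 9.41 ± 0.42 FPKM in control libraries (adjusted p = 0.0727), and Srsf11 79.7 ± 2.1 FPKM in deletion libraries and 72.7 ± 3.1 FPKM in control libraries (adjusted p = 0.136). For these 3 regulators of exon choice the groups did not overlap, but none passed.

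The other SR protein genes overlapped between groups. Srsf5, the most abundant of them in FPKM, was at 234, 234 and 235 FPKM in deletion libraries 1 to 3, against 215, 262 and 206 FPKM in control libraries 1 to 3. Control library 2 was the highest of all 6, and the interval was -0.16 to 0.26 on the log2 scale. Srsf1, the founding splicing activator of the family, averaged 53.3 ± 3.9 FPKM in deletion libraries and 51.4 ± 2.9 FPKM in control libraries. The ratio of Srsf2 to Srsf1 was 1.57, 1.52 and 1.83 in deletion libraries 1 to 3, against 1.38, 1.6 and 1.39 in control libraries 1 to 3, and these overlapped. Srsf3 and Srsf7, which also serve mRNA export, averaged 88.8 ± 6.1 and 111 ± 2.2 FPKM in deletion libraries, against 88.3 ± 7.1 and 105 ± 8.5 FPKM in control libraries. Srsf9 and Srsf10, the second known as a repressor when dephosphorylated in heat shock, averaged 65.1 ± 2.3 and 45.4 ± 2.4 FPKM in deletion libraries, against 61.3 ± 6.1 and 44.9 ± 2.6 FPKM in control libraries. Srsf12 was not tested, at 0.703 to 1.04 FPKM in deletion libraries and 0.551 to 0.770 FPKM in control libraries. All 10 tested SR protein genes had a positive log2 fold change at the deposited scaling, where 65.3% of all tested genes did, but 4 of 10 with median-ratio scaling, where 48.8% of all tested genes did, and 9 of 10 with quantile normalization.

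Of the Sm ring, Snrpd1 fell and its neighbours in the ring did not pass. Snrpd1 (ENSMUSG00000002477, chromosome 18, 10617775 to 10642079, plus strand) encodes SmD1. It fell to 57.3, 59.4 and 57.1 FPKM in deletion libraries 1 to 3, against 74.6, 68.3 and 87.7 FPKM in control libraries 1 to 3. The deletion libraries were all lower and nearly equal, whereas control libraries spread over a wider range. The mean was 57.9 ± 1.3 FPKM in deletion libraries and 76.9 ± 9.9 FPKM in control libraries (log2 fold change -0.39, SE 0.090, adjusted p = 0.0377). Snrpd2, which encodes SmD2, the partner of SmD1 in the ring, averaged 150.4 ± 15 FPKM in deletion libraries and 148 ± 15 FPKM in control libraries. The ratio of Snrpd1 to Snrpd2 was 0.419, 0.356 and 0.388 in deletion libraries 1 to 3, against 0.526, 0.495 and 0.530 in control libraries 1 to 3, with no overlap. Snrpb averaged 144 ± 6.5, Snrpd3 38.3 ± 1.5, and Snrpe 128 ± 7.1 FPKM in deletion libraries, against 139.6 ± 15, 38.8 ± 4.3 and 128 ± 7.3 FPKM in control libraries. Snrpg had the highest level per length of this role, at 223, 229 and 201 FPKM in deletion libraries 1 to 3, against 219, 218 and 245 FPKM in control libraries 1 to 3. These groups overlapped, with an interval of -0.23 to 0.11 on the log2 scale.

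Snrpf, which encodes the Sm protein F, was barely counted and was not tested. It held 5, 9 and 14 fragments in deletion libraries 1 to 3, against 6, 11 and 6 fragments in control libraries 1 to 3, or 0.26 to 0.803 FPKM and 0.338 to 0.642 FPKM. Its exons share up to 502 bases with Ccdc38 on the opposite strand, and the part of that overlap in the low count was not tested. Reads of Sm and hnRNP genes may also be divided with processed copies. Among the 4 processed pseudogenes with these symbol beginnings in the table, Snrpert reached 15.6 to 22.0 FPKM in deletion libraries and 17.5 to 22.6 FPKM in control libraries. Comparisons of level between genes further depend on the length used, which the values give as 350 bases for Snrpg and 6057 for Snrpc.

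Under the symbol rule, 4 genes encode proteins particular to the U1 and U2 snRNPs. Of the 4, 3 had lower means in deletion libraries and none passed limma's test at the deposited scaling. Snrnp70, for the U1 70K protein, lies outside the rule and rose in that test (adjusted p = 0.0396). Among the 4, 1 had an unadjusted p under 0.05, Snrpb2, which median-ratio scaling and voom called lower. Of all tested genes, 12.0% passed limma's test at the deposited scaling and 32.6% had an unadjusted p under 0.05. Snrpb2, the U2 protein B″, was at 28.2, 28.1 and 24.7 FPKM in deletion libraries, against 31.2, 30.4 and 32.1 FPKM in control libraries. No deletion library reached a control value (log2 fold change -0.20, adjusted p = 0.0877). Snrpa1, the U2 protein A′ that binds it, averaged 29.9 ± 2.4 FPKM in deletion libraries and 29.5 ± 3.1 FPKM in control libraries. The U1 proteins A and C, from Snrpa and Snrpc, averaged 38.0 ± 3.5 and 10.8 ± 0.68 FPKM in deletion libraries, against 42.8 ± 6.8 and 12.5 ± 1.6 FPKM in control libraries, with adjusted p-values of 0.38 and 0.226.

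Within SF3A, 1 of 3 subunit genes fell, against 3.08% of all tested genes, a count too small to be a result about SF3A. Sf3a3 (ENSMUSG00000028902, chromosome 4, 124714776 to 124732460, plus strand), the SF3a60 subunit, fell to 40.9, 39.9 and 39.1 FPKM in deletion libraries 1 to 3, against 47.5, 45.7 and 54.6 FPKM in control libraries 1 to 3. The groups did not overlap, and the mean was lower by 18.9% of the control mean (log2 fold change -0.29, SE 0.074, adjusted p = 0.0491). Sf3a1 and Sf3a2, which encode the other two SF3A subunits, averaged 34.2 ± 1.8 and 57.7 ± 0.21 FPKM in deletion libraries, against 38.0 ± 1.6 and 53.7 ± 3.3 FPKM in control libraries. Neither passed (adjusted p = 0.144 for Sf3a1 and 0.256 for Sf3a2). The ratio of Sf3a3 to Sf3a2 was 0.693 ± 0.013 in deletion libraries and 0.918 ± 0.080 in control libraries. This pair holds a gene already called lower, was chosen after the values were seen, and was not tested. The log2 fold change was 0.10 for Sf3a2 but -0.15 for Sf3a1, the same direction as Sf3a3. Sf3a1 was called lower with voom (adjusted p = 0.0468), and the ratio of Sf3a3 to Sf3a1 was not among the pairs.

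None of the 6 SF3B genes passed limma's test at the deposited scaling, against 12.0% of all tested genes. Of the 6, 1 had an unadjusted p under 0.05, against 32.6% of all tested genes. Sf3b1, the branch point factor mutated in human blood cancers, was at 145, 132 and 143 FPKM in deletion libraries 1 to 3, against 136, 143 and 125 FPKM in control libraries 1 to 3, with overlap. Sf3b6, whose protein contacts the branch point adenosine, averaged 53.3 ± 3.5 FPKM in deletion libraries and 61.7 ± 4.2 FPKM in control libraries. It was the one SF3B gene without overlap and with an unadjusted p under 0.05 (adjusted p = 0.1), and it was called lower with median-ratio scaling (adjusted p = 0.0487) and voom (adjusted p = 0.0446). Sf3b2, Sf3b3, Sf3b4 and Sf3b5 had log2 fold changes of -0.05, 0.01, 0.06 and 0.07, with adjusted p-values of 0.54 to 0.617 apart from 0.903 for Sf3b3.

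**Figure D3:**
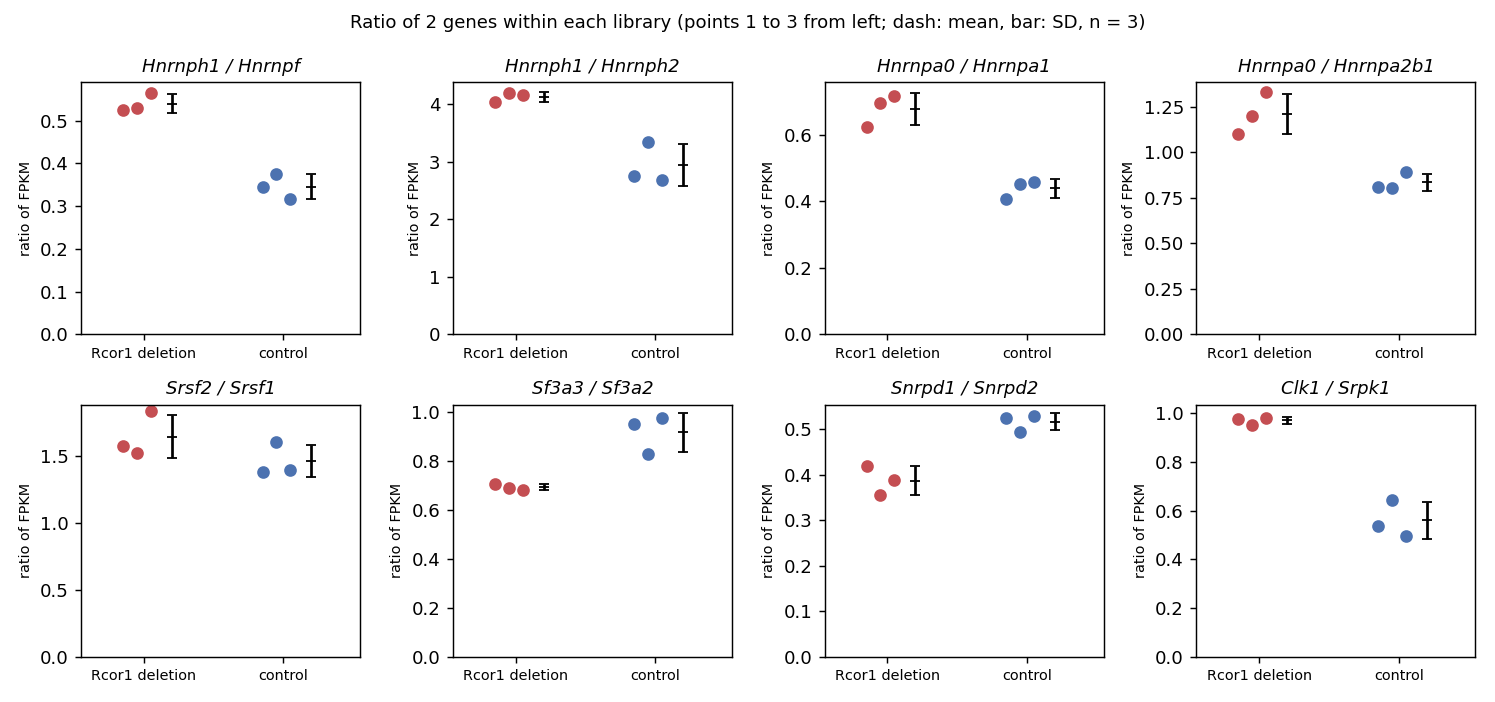
Ratio of the FPKM of 2 genes within each library (y axis, from 0), with points for libraries 1 to 3 and the mean and SD beside them. The ratios to Hnrnpf, Hnrnph2, Hnrnpa1 and Hnrnpa2b1 and that of Clk1 to Srpk1 are higher in all deletion libraries, the ratios of Sf3a3 to Sf3a2 and Snrpd1 to Snrpd2 are lower in all of them, and the ratio of Srsf2 to Srsf1 overlaps.

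The start regions of the genes that passed are shown so that their sequence can be set beside the direction of change. They are RefSeq windows of 300 bases on GRCm38.p6, from 250 bases before a transcript's start to 50 after it, given 5′ to 3′ on the gene's strand, for the 4 genes other than Snrpd1. Capitals mark the ETS sequence CCGGAA or its reverse complement TTCCGG, and the TATA sequence TATAAA or its reverse complement TTTATA. Matches to the shorter GGAA alone are not marked or counted. The motifs do not overlap each other here. Hnrnph1 has 5 such windows, of which the one at the annotated gene start is shown.
Hnrnph1 (chr11:50376740-50377039, plus strand): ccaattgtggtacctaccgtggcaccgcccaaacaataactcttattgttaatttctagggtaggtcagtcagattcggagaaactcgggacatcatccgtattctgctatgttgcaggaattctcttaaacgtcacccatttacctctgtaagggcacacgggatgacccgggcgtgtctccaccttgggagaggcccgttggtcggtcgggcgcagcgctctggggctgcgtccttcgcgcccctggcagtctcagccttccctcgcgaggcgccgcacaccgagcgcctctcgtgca
Hnrnpa0 (chr13:58128507-58128806, minus strand): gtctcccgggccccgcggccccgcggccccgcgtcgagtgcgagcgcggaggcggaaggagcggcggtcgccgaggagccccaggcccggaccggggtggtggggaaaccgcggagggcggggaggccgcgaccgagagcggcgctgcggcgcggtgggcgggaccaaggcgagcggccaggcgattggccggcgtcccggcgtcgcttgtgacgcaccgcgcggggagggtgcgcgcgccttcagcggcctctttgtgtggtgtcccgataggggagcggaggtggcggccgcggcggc
Srsf2 (chr11:116853045-116853344, minus strand): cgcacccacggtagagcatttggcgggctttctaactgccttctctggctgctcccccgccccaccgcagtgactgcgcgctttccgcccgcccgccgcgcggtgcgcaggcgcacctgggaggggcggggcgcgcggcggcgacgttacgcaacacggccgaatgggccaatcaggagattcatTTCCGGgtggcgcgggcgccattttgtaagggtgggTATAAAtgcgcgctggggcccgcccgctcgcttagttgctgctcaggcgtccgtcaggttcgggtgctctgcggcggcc
Sf3a3 (chr4:124714611-124714910, plus strand): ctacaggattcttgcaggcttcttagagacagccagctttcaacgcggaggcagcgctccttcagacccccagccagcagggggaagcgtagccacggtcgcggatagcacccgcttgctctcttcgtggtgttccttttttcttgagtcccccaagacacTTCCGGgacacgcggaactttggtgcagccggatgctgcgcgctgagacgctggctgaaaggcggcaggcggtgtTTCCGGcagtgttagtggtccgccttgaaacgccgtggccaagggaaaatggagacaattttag
The windows shown for the 2 hnRNP genes that rose hold neither of these 2 sequences. The Srsf2 window holds 1 ETS sequence and 1 TATA sequence, and the window of Sf3a3, which fell, holds 2 ETS sequences. GC content was 58.0% for Hnrnph1, 79.7% for Hnrnpa0, 69.3% for Srsf2 and 59.0% for Sf3a3. Of the 51 genes, 45 matched at least 1 window, 59 windows in all. The ETS sequence was found in 49.2% of these windows, against 29.5% of the 10862 windows of tested genes and 14.9% of all 32851 windows. The TATA sequence was found in 10.2% of them, against 6.7% of windows of tested genes and 13.6% of all windows. A match is a match of letters and says nothing about binding.

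Summed over a role, the transcripts differed by a few percent, and the sums were not tested. SR protein genes took 2856, 2843 and 2752 fragments per 1000000 of the library (CPM) in deletion libraries 1 to 3, against 2557, 2808 and 2589.7 CPM in control libraries 1 to 3, a mean 6.2% higher with overlap. The hnRNP genes took 9535 ± 255 CPM in deletion libraries and 9935 ± 564 CPM in control libraries. Genes of Sm and U1 and U2 snRNP proteins took 898 ± 46 CPM in deletion libraries and 935 ± 88 CPM in control libraries, and SF3A and SF3B genes 2123 ± 35 CPM in deletion libraries and 2132 ± 16 CPM in control libraries. Together the 51 genes took 15373 ± 330.1 CPM in deletion libraries and 15654 ± 518 CPM in control libraries, so the total differed by less than the spread between control libraries.

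**Figure D4:**
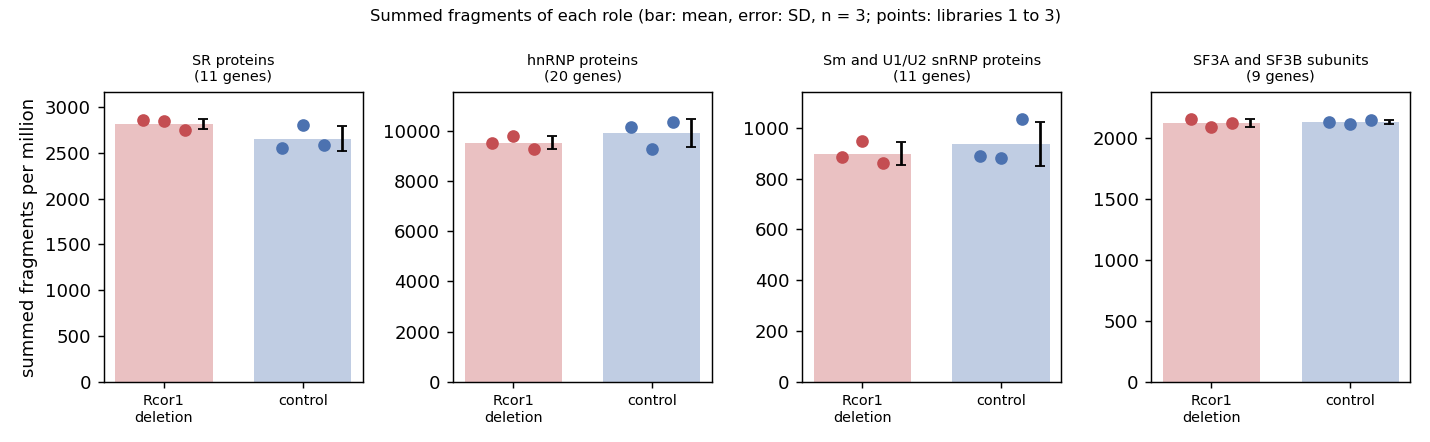
CPM, fragments per 1000000 of the library total, summed over the genes of each role (y axis, from 0), with bars for the mean, error bars for the SD over 3 libraries and points for libraries 1 to 3. Deletion and control points overlap in every role, and control library 2 lies nearest the deletion libraries for SR proteins.

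Control libraries were not alike. Control library 3 held the highest of the 3 control values for 35 of the 49 tested genes, or 71.4%, against 34.8% of all tested genes. Control library 2 held the lowest for 31 of the 49 and the highest for 10, so it lay outside the other two for 41 of them, and it did so for 71.2% of all tested genes. Without control library 2, limma called 3 splicing factor genes higher (Hnrnph1, Srsf2 and Srsf6) and 6 lower (Hnrnpa1, Hnrnpa3, Hnrnpab, Hnrnpd, Sf3a3 and Snrpd1), or 6.12% and 12.2%, against 12.6% and 3.75% of all genes tested there. Without any one of the other 5 libraries, 1 or 2 genes were called higher (Hnrnph1 each time, with Hnrnpa0 without control library 3) and none lower (limma). That is 2.04% or 4.08% of the 49 higher, against 1.41% to 3.6% of all genes higher and 0.804% to 1.43% lower, so calls fell over the whole table there. Adjusted p-values were then 0.042 to 0.144 for Hnrnpa0, 0.0851 to 0.14 for Srsf2, 0.0763 to 0.153 for Sf3a3 and 0.0518 to 0.123 for Snrpd1, and each kept its direction.

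The scaling of the libraries changed the calls of some of these genes: 2 of the 5 called genes were lost, and 8 others were called, under another scaling or with voom. Median-ratio scaling, which sets the typical gene equal between libraries, divided deletion values by 1.022 to 1.045 and control values by 0.96 to 0.977. With it, 43.4% of called genes over the whole table were higher in deletion libraries, against 74.4% at the deposited scaling. Of the 49 splicing factor genes it called 1 higher (Hnrnph1) and 6 lower (Hnrnpa1, Hnrnpa2b1, Snrpd1, Snrpb2, Sf3a3 and Sf3b6), or 2.04% and 12.2%, against a background of 4.56% and 5.94%, or 10.5% in either direction. Voom on the recovered fragments, with library sizes set by the same median-ratio method, called the same gene higher and 10 lower. The 10 were 20.4% of the 49, against 6.07% of all tested genes higher and 6.29% lower, 12.4% in all. These 10 were the same 6 with Hnrnpab, Hnrnpd, Hnrnpf and Sf3a1. Quantile normalization called the same 3 and 2 genes as the deposited scaling, against a background of 4.09% and 3.41%, or 7.5% in all. Hnrnph1, Sf3a3 and Snrpd1 were called under all 4, and Hnrnpa0 and Srsf2 were not called with median-ratio scaling or voom. Because voom shares the median-ratio method, these 2 settings are not separate checks of the scaling.

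**Figure D5:**
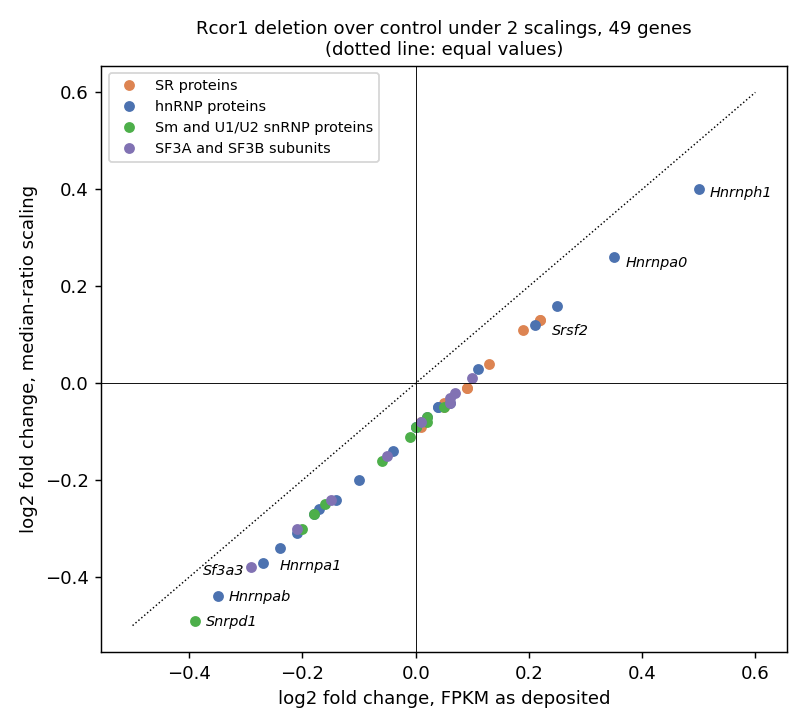
Log2 fold change (Rcor1 deletion over control) of the 49 tested genes with the FPKM as deposited (x axis) and after median-ratio scaling (y axis), coloured by role. All points lie below the dotted line of equal values, 30 genes lie right of 0 and 10 lie above 0.

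The rest of the splicing machinery was described with 10 lists that hold 154 genes outside the symbol rule. Of these, 148 were tested, 16 rose and 3 fell, or 10.8% and 2.03%, against the background of 8.95% and 3.08%. The median log2 fold change of the 148 was 0.02, against 0.08 for all tested genes. With median-ratio scaling 4 were higher and 7 lower, against 4.56% and 5.94% of all tested genes. Single lists hold few genes, and the counts given for them below are no result about a list. With each of the 6 libraries left out in turn, Ptbp2 kept its call 5 times and Scaf1 2 times, whereas 12 of the 19 called genes kept it 1 time and 5 not at all.

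Kinases of SR proteins held 2 of 8 tested genes that rose and 1 that fell, against 8.95% and 3.08% of all tested genes. Clk1 and Clk4 phosphorylate SR proteins in the nucleus, where this releases them from speckles, and Srpk1 phosphorylates them mainly in the cytoplasm. Clk1 rose to 49.3, 44.6 and 48.4 FPKM in deletion libraries 1 to 3, against 31.2, 37.7 and 27.4 FPKM in control libraries 1 to 3 (log2 fold change 0.56, SE 0.11, adjusted p = 0.0252). Clk4 rose to 30.5, 27.5 and 30.9 FPKM in deletion libraries 1 to 3, against 20.2, 23.9 and 18.6 FPKM in control libraries 1 to 3 (log2 fold change 0.49, adjusted p = 0.0252). Srpk1 fell to 50.5, 46.8 and 49.3 FPKM in deletion libraries 1 to 3, against 58.1, 58.4 and 55.2 FPKM in control libraries 1 to 3 (log2 fold change -0.22, adjusted p = 0.0405). None of the 3 genes overlapped between groups, and they were also called with median-ratio scaling, quantile normalization and voom. The ratio of Clk1 to Srpk1 averaged 0.971 ± 0.014 in deletion libraries and 0.560 ± 0.077 in control libraries. This pair joins a gene called higher and a gene called lower, was chosen after the values were seen, and was not tested. Clk1 and Clk4 lost their calls when any library other than control library 2 was left out, and Srpk1 when any library was.

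SR-like and SR-related genes held 3 of 17 that rose, or 17.6%, against 8.95% of all tested genes. Srrm2, a scaffold of nuclear speckles, averaged 131 ± 9.7 FPKM in deletion libraries and 103 ± 9.2 FPKM in control libraries. Scaf1 averaged 32.0 ± 0.74 FPKM in deletion libraries and 26.2 ± 0.48 FPKM in control libraries, and the U1-associated Luc7l2 77.5 ± 0.90 FPKM in deletion libraries and 63.9 ± 2.9 FPKM in control libraries. The 3 were not called with median-ratio scaling. Among 24 snRNP genes outside the symbol rule, Snrnp70, the U1 70K protein, rose to 264 ± 8.4 FPKM in deletion libraries, against 220.3 ± 14 FPKM in control libraries. Snrnp48, a protein of the minor spliceosome, rose to 22.9 ± 0.38 FPKM in deletion libraries, against 17.3 ± 2.2 FPKM in control libraries. Neither was called with median-ratio scaling (adjusted p = 0.104 for Snrnp70 and 0.0687 for Snrnp48) or with voom.

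Regulators and later steps gave further single genes. Of 30 tested regulators of splice site choice 4 rose, or 13.3%, against 8.95% of all tested genes. They were led by Ptbp2, the relative of the repressor Ptbp1 that is best known in neurons. Ptbp2 was at 7.83, 7.46 and 7.08 FPKM in deletion libraries 1 to 3, against 5.35, 5.07 and 5.26 FPKM in control libraries 1 to 3 (log2 fold change 0.44, SE 0.067, adjusted p = 0.0116). Its values did not overlap, and the call held in 14 of 16 alternative settings. Mbnl2, Celf2 and Sfpq rose to 8.57 ± 0.21, 37.0 ± 0.78 and 137 ± 6.1 FPKM in deletion libraries, against 6.70 ± 0.61, 31.7 ± 1.3 and 119 ± 2.7 FPKM in control libraries, calls lost with median-ratio scaling. At the 3′ splice site 1 of 10 genes rose, the U2AF small subunit relative U2af1l4, at 10.4 ± 0.65 FPKM in deletion libraries and 7.27 ± 0.73 FPKM in control libraries (adjusted p = 0.0203).

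In the list of the exon junction complex, which marks spliced mRNA, 2 of 10 genes rose and 1 fell. The background was 8.95% and 3.08% of all tested genes. Rnps1, a splicing activator of that complex, fell to 65.3, 71.4 and 65.5 FPKM in deletion libraries 1 to 3, against 86.9, 81.5 and 98.5 FPKM in control libraries 1 to 3 (log2 fold change -0.39, adjusted p = 0.0257). Magohb, a core subunit, rose to 7.60 ± 1.0 FPKM in deletion libraries, against 5.22 ± 0.62 FPKM in control libraries. Upf1, the helicase of nonsense-mediated decay, rose to 47.0 ± 0.53 FPKM in deletion libraries, against 40.9 ± 1.5 FPKM in control libraries. Magohb (adjusted p = 0.0445) and Upf1 (adjusted p = 0.0489) were not called with median-ratio scaling (adjusted p = 0.0747 and 0.236), quantile normalization or voom. In the list of the Prp19 complex, 1 of 15 rose and 1 fell, or 6.67% each, against the same background. Xab2 rose to 27.8 ± 1.2 FPKM in deletion libraries, against 22.7 ± 1.8 FPKM in control libraries (adjusted p = 0.0462), a call lost with median-ratio scaling (adjusted p = 0.123), quantile normalization and voom. Ctnnbl1 fell to 29.2 ± 1.4 FPKM in deletion libraries, against 35.2 ± 0.40 FPKM in control libraries.

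Of 12 tested genes of Sm assembly, Coil, which encodes the Cajal body protein coilin, rose to 8.63 ± 0.34 FPKM in deletion libraries, against 7.05 ± 0.083 FPKM in control libraries (adjusted p = 0.0401). That is 8.33% of the 12 higher, against 8.95% of all tested genes. Coil was not called with median-ratio scaling (adjusted p = 0.122), quantile normalization, voom or any library left out. Of 10 LSm genes, most of whose proteins form rings that bind U6 RNA or decaying mRNA, 0 passed with limma or with voom. Of all tested genes, 12.0% passed with limma and 12.4% with voom. Of the 10, 2 had an unadjusted p under 0.05, against 32.6% of all tested genes. The median log2 fold change of the 10 was -0.13, against 0.08 for all tested genes. Lsm2 averaged 17.2 ± 1.2 and Lsm3 35.3 ± 4.8 FPKM in deletion libraries, against 22.0 ± 3.5 and 44.9 ± 6.3 FPKM in control libraries, with adjusted p-values of 0.109 and 0.115. Of 12 helicases and second step factors 0 passed with limma at the deposited scaling. With median-ratio scaling 1 passed, against 10.5% of all tested genes, and 1 passed with voom. An unadjusted p under 0.05 was found for 2 of the 12, against 32.6% of all tested genes. Dhx16 was at 36.3 ± 0.78 FPKM in deletion libraries and 32.4 ± 1.4 FPKM in control libraries, and was called with array quality weights alone (adjusted p = 0.04). Ddx46, which was called lower with median-ratio scaling (adjusted p = 0.0443) and voom (adjusted p = 0.0409), was at 42.6 ± 0.42 FPKM in deletion libraries and 46.4 ± 1.4 FPKM in control libraries.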

How the data were processed

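Messenger RNA of 6 libraries of sorted mouse Treg cells was analysed from 1 deposited table of FPKM values. STAR and the mm10 build are named in the submitters' processing notes, whereas the labels leave the counting tool, annotation release and filters unnamed. Columns were matched to samples by the sample descriptions. Symbols, positions and lengths came from GENCODE M21 (GRCm38), which held 52 genes under the symbol rule, 51 of them in the table. Library totals were recovered because FPKM times length and total is a whole number of fragments: within 0.01 fragments, 15336 of 21670 genes above 0 were whole with the longest transcript, and a length was solved for another 6562 identifiers. Recovered fragments made up 99.9% to 99.91% of the totals. No molecular identifiers are mentioned, so PCR copies count as fragments.

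The test was limma 3.58.1 (R 4.3.3) with a variance trend on log2(FPKM + 1), which understates changes of low genes, for the 11575 genes that reached 1 FPKM in 3 or more libraries. Tests were two-sided with Benjamini-Hochberg adjustment over all tested genes. On simulated fragments for this comparison, over 11464 genes, it recovered 62 of 98 genes changed 1.5-fold and 97 of 99 changed 2-fold, with 4 false calls. The simulation used the same extra spread between libraries for every gene, and held no unlike control library and no shift in scaling. It therefore does not give the power or the number of false calls in the real libraries. Where groups do not overlap, all 3 values of one lie beyond all 3 of the other. The members, lists and pairs were chosen with earlier results of these data known. Values per library were given for members that passed and for the most abundant of each role; other members given per library were picked after their values were seen. Each list gave up to 4 genes that passed, or the 2 with the smallest p. The labels do not say whether replicate numbers pair the libraries. Alternatives were other pseudocounts, filters, scalings and variance models, each library left out, and the replicate block. Voom on recovered fragments, with library sizes set by the median-ratio method, was added after the data were seen.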

Additional observations from a re-analysis of the deposited data

How the results depend on the processing

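In all, 1392 genes were called, against 844 with no filter on low values, 868 with quantile normalization, 2396 with array quality weights and 279 to 1862 with 1 library left out. Of the splicing factor genes, 3 were called higher and 2 lower. These counts were 1 and 6 with median-ratio scaling, 1 and 0 with no filter on low values (2.58% and 1.27% of all genes), 1 and 1 with no variance trend (9.11% and 2.54% of all genes), 6 and 5 with array quality weights (15.9% and 4.79% of all genes), and 1 and 10 with voom. With 1 library left out they were 1 to 3 higher and 0 to 6 lower. Counts of the pathway lists stand against the shares of all genes given above for each setting. For these lists, 16 were higher and 3 lower. They were 4 and 7 with median-ratio scaling, 4 and 1 with no filter, and 10 and 2 with no variance trend. They were 7 and 3 with quantile normalization, 24 and 6 with weights, and 5 and 8 with voom. With 1 library left out they were 0 to 20 and 0 to 6. Fewer libraries leave fewer degrees of freedom, and otherwise the cause was not tested. Pseudocounts of 0.1 and 5 and a filter at 5 FPKM left these counts within 1.5 times. Many uncalled genes near 0 changed sign: 30 of the 49 had a positive log2 fold change at the deposited scaling and 10 with median-ratio scaling. Among the genes followed in every setting, Srsf5 took -0.05 and Sf3b1 -0.04 with median-ratio scaling, and -0.04 and -0.03 with voom. With 1 library left out Srsf5 took -0.02 (without control library 3) to 0.15.

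Same-numbered libraries deviated from their group means with correlations of 0.211, -0.135 and -0.162. Deviations from a group mean sum to 0 for each gene, which forces mixed signs. These correlations therefore cannot show whether the numbers pair the libraries. Deletion library 2 correlated with control library 3 at 0.336, and deletion library 3 with control library 2 at 0.185. All remaining pairs were negative, so the positive pairs joined each deletion library to a different control library. Whether libraries of the 2 groups shared a preparation was not tested. With the replicate block, which used same-numbered libraries as pairs, 404 genes were called in all, 2.32% of all genes higher and 1.17% lower. Of the splicing factor genes 1 was higher (Hnrnph1, adjusted p = 0.0362) and 0 lower, and 1 pathway gene was higher and 0 lower. Tested splicing factor genes held 541 fragments or more in every library, whereas Snrpf and Srsf12 were too low to test.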
